A study of Mus musculus with 6 samples.

Results

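The 10 genes of the glucocorticoid and stress hormone axis studied (Nr3c1, Nr3c2, Fkbp5, Crh, Crhr1, Crhr2, Pomc, Avp, Ucn and Sgk1) were followed in DNA from mouse male germ cells. The genes were chosen by name, and their cytosines were those listed in all 6 libraries inside the gene or within 1 kb of either end. This gave 1530 cytosines of the 2206320 used in the whole series, in 10 of 17624 genes with at least 1 cytosine. Cytosines were read by reduced representation bisulfite sequencing, in which DNA is cut at CpG-rich restriction sites and unmethylated cytosines are converted, so that only methylated ones still read as C. The libraries were 3 Control and 3 CSDS, the letters standing for chronic social defeat stress, repeated exposure of a mouse to a dominant aggressor. No allele, transgene or drug is named for either group, and strain, age, the length of the stress and the stage or purification of the germ cells are not given in the sources used here. Nothing in the labels ties the replicates to separate animals, and p-values measure the spread between these libraries only. The comparison asks whether social defeat is accompanied by other methylation levels in the germ line.

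The hypothalamus answers stress by releasing corticotropin-releasing hormone (from Crh) and vasopressin (Avp), which drive pituitary cells to cleave corticotropin from the Pomc precursor, and corticotropin makes the adrenal cortex secrete glucocorticoid. The hormone acts through the glucocorticoid receptor (Nr3c1) and the mineralocorticoid receptor (Nr3c2), and these switch on targets such as Sgk1, a kinase, and Fkbp5, a co-chaperone that lowers the receptor's affinity for hormone and so closes a feedback loop. Urocortin (Ucn) is a peptide related to corticotropin-releasing hormone, and both act on the receptors Crhr1 and Crhr2. In most cells a CpG island at a gene start is unmethylated and isolated CpGs inside a gene are methylated. In bulk DNA a partial level in all cells and full methylation in some of them cannot be told apart.

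The sequence before the starts showed how differently these genes are built. These are 6 stretches of 250 bases that end at the base before a listed start, from RefSeq promoter windows of the GRCm38 assembly, 5′ to 3′ on the gene's strand. They show a CpG-rich and a CpG-poor receptor start, a start with a known hormone-pathway motif, and 3 of the starts of Sgk1. Coordinates are chr11:104132531-104132780 (+) for Crhr1, chr6:55133017-55133266 (−) for Crhr2, chr5:31138896-31139145 (−) for Ucn, and chr10:21978422-21978671, chr10:21993640-21993889 and chr10:21994416-21994665 (+) for the second, the fifth and the sixth of the starts of Sgk1. Capitals mark CG pairs read in all 6 libraries in Crhr1, in the second and the sixth starts of Sgk1, and in Crhr2, which has none. In Ucn the capitals mark the motif TGACGTCA, and in the fifth start of Sgk1 a match to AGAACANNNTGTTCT.
Crhr1: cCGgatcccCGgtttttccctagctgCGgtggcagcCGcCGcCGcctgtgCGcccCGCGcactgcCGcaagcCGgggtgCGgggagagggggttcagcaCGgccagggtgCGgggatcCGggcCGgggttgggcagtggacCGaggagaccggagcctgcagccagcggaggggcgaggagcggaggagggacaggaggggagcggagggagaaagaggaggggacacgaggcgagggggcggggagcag
Crhr2: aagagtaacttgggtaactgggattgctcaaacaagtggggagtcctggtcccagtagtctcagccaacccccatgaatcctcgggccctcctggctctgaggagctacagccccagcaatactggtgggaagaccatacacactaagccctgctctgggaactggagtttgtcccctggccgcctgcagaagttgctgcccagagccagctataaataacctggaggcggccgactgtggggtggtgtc
Ucn: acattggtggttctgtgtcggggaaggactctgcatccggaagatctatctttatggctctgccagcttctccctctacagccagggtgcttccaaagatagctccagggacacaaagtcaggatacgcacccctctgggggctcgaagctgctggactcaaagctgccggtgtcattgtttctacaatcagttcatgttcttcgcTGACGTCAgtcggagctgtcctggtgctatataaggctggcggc
Sgk1, the second start: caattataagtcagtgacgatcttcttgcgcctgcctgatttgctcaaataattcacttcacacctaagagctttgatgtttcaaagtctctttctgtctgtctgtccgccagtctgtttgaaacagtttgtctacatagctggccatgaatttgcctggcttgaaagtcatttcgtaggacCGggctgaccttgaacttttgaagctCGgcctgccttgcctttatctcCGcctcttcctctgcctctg
Sgk1, the fifth start: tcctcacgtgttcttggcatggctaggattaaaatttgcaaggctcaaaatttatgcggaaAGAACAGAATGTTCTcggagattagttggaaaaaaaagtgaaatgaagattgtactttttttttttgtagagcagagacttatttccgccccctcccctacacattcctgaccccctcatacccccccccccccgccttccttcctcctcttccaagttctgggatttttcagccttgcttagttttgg
Sgk1, the sixth start: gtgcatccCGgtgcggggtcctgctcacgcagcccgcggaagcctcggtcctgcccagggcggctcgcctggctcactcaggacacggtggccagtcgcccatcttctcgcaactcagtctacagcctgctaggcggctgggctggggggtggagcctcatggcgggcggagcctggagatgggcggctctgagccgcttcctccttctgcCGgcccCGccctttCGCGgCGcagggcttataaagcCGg

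Counted over the 300-base windows from 250 bases before to 50 after each start, Crhr1 held 31 CG pairs and Crhr2 held 5, against a median of 7 over 32851 windows. The Crhr1 window had 32 cytosines read in every library and the Crhr2 window 0. The second Sgk1 window held 8 CG pairs and the sixth 28. Both strands were searched for 4 motifs, none of which contains another. The palindrome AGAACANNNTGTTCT, which glucocorticoid receptor dimers recognise, was in 3 windows of 32851 (0.00913%), and 1 of the 3 was the fifth start of Sgk1, 175 to 189 bp before the start. No cytosine in that window was read in all 6 libraries. The cAMP response element TGACGTCA was in 588 windows (1.79%), among the members only in Ucn, 37 to 44 bp before the start. Its CG was read on both strands. On one strand the cytosine read as C in 6.45%, 18.8% and 12.8% of reads in Control replicates 1, 2 and 3 and in 3.85%, 0% and 8.57% in CSDS replicates 1, 2 and 3, at coverages of 52 to 93. On the other strand it read 4.08%, 1.67% and 8.0% in Control and 4.76%, 3.81% and 0% in CSDS, at coverages of 98 to 126. All of these values are low and the groups overlapped on both strands. The EGR1 site GCGGGGGCG was in 955 windows (2.91%), including that of Fkbp5, and the E-box CACGTG was in 2349 (7.15%), including those of Avp, Fkbp5 and Sgk1. A match to letters describes the window and is no measurement of binding.

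In the series as a whole, libraries listed 2420308 to 3156788 cytosines at median coverages of 44 to 50 reads. Reads that show C at 27 mitochondrial CpG cytosines, DNA taken to be unmethylated, made up a median of 8.90%, 8.84% and 10.04% in Control replicates 1, 2 and 3 and 8.50%, 4.41% and 4.53% in CSDS replicates 1, 2 and 3. CSDS replicates 2 and 3 therefore stand apart from the other 4 libraries in DNA unrelated to these genes. Levels below are given as deposited and, where named, after a correction that divides the unmethylated share by 1 minus the library's mitochondrial share, which can take a level below 0. The 8 starts of germ cell genes ranged from 14.9% to 27.0% in Control, 2 of them under 20%, and from 11.7% to 19.7% in CSDS. Those of 6 maternally imprinted genes, which male germ cells leave unmethylated, ranged from 11.1% to 28.5%, 4 of them under 20%, and from 8.44% to 20.3%. Among them Snrpn had means of 28.5% and 16.9% without overlap, and still −9.32 points without overlap after the correction. Of markers of other testis cells, 3 of 4 Sertoli starts were under 20% in Control, with a range of 11.6% to 87.8% and in CSDS of 9.47% to 89.4%, and the 3 Leydig starts ranged from 48.7% to 95.98% and from 41.3% to 95.6%. Among the latter Nr5a1 had means of 49.3% and 41.3% without overlap as deposited. No start is listed for the 4 Sertoli genes, for Star and Nr5a1 among the Leydig genes, or for the imprinted Peg10. For these a gene end stood in, which may lie away from the start. The window of Gata4, the highest Sertoli gene, held 12 of the gene's 417 cytosines, and that of Nr5a1 8 of 178. None of the 3 blood gene starts was measured. The part other cell types have in the results was not tested.

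Each gene was described in 3 ways. A start window held at least 3 cytosines within 1 kb of a listed transcription start. Where no start is listed, the gene end with more cytosines stood in, which need not be the start. An interior held the rest of the gene with its flanks. A CpG-dense part held the cytosines with at least 20 listed cytosines within 100 bp, wherever in the gene they lay. Start windows were measured in 7 members, interiors in 9 and CpG-dense parts in all 10. A feature was called at an adjusted p under 0.05 (quasi-binomial F test, Benjamini-Hochberg over all features of its kind) with a difference of at least 10 percentage points. With 3 libraries against 3, the smallest exact two-sided permutation p is 0.1, reached wherever the groups do not overlap.

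As deposited, the CpG-dense part of each of the 10 genes had a lower mean in CSDS than in Control, by 1.53 (Avp) to 10.7 points (Pomc, 3 cytosines), and none was called. Over all 11837 CpG-dense parts 98.8% were lower, so the shared direction is that of the genome. The median was −3.12 points in the members and −3.32 points in all CpG-dense parts. An unadjusted p under 0.05 was found in 5 of the 10, against 43.3% of all, and the groups did not overlap, with CSDS below, in 3 of the 10 (Nr3c1, Crhr2 and Sgk1), against 39.5% of all. The share called was 0.0% in all CpG-dense parts. After the mitochondrial correction 4 of the 10 were lower, against 51.2% of all, and the median was 0.193 points in the members and −0.0341 in all.

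**Figure D1:**
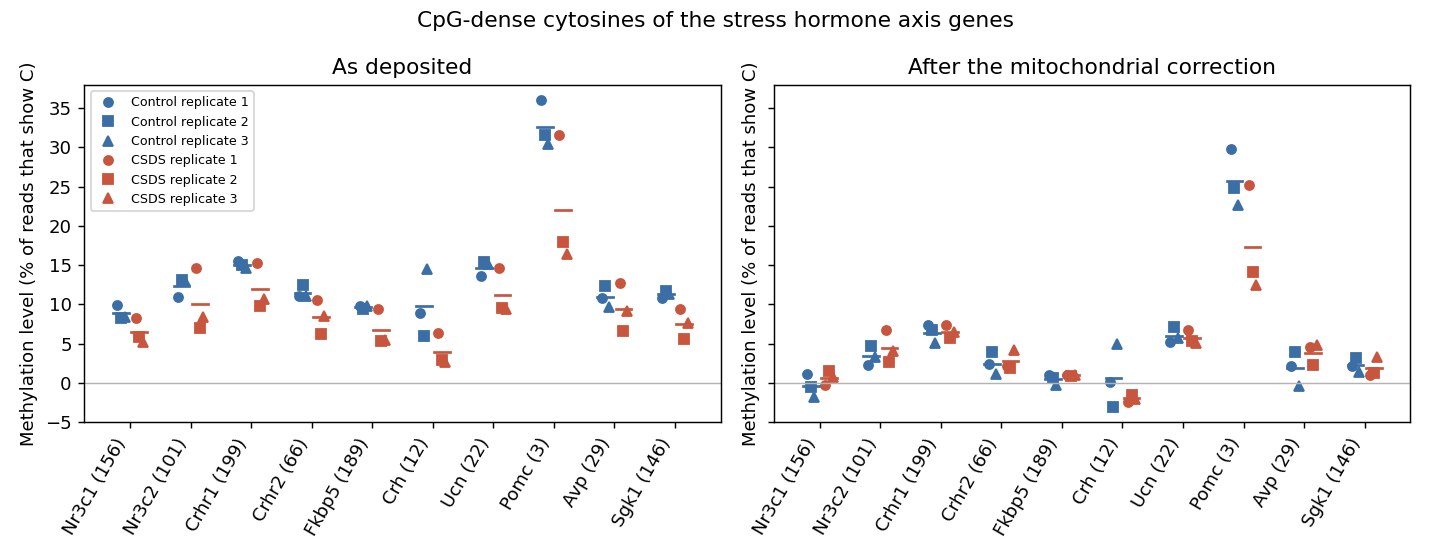
Methylation level (percent of reads that show C) of the CpG-dense cytosines of each gene, with the number of cytosines in brackets, in Control (blue) and CSDS (red) libraries; points are libraries, bars are group means, and the right panel shows the same levels after the mitochondrial correction. CSDS replicate 1 lies near Control in most genes, Pomc stands highest at a Control mean of 32.6%, and after the correction most group means lie close together.

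Nr3c1 carried 197 cytosines, all of them inside the gene (chromosome 18, 39410545 to 39519421), and none within 1 kb of either end. Mouse Nr3c1 has several alternative first exons, many of them in a CpG island, the stretch most often examined in studies of early adversity. Here 177 of the cytosines fell in 5 unmethylated blocks between 39488875 and 39490682, which lie 28739 bp from the upper end of the gene. A block is a run of at least 3 cytosines with gaps of at most 100 bp. The strand and exons of Nr3c1 were not used here, so the blocks were not placed against first exons. The CpG-dense part of Nr3c1 (156 cytosines) read 9.98%, 8.32% and 8.43% in Control replicates 1, 2 and 3 and 8.31%, 5.79% and 5.20% in CSDS replicates 1, 2 and 3. CSDS replicate 1 lay just under the lowest Control library and the other CSDS libraries were clearly lower. The means were 8.91% ± 0.927 (SD, n = 3) and 6.43% ± 1.65 (SD, n = 3), with an adjusted p of 0.0903. After the correction the difference was 1.04 points, with overlapping groups. In Control, Nr3c1 was at the 3.60th percentile of all CpG-dense parts, one of the least methylated.

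Within the Nr3c1 stretch, the level changed from block to block. From the lower coordinate upward, Control means of the 5 blocks were 10.99%, 13.3%, 9.91%, 8.01% and 4.59%. The block of largest difference, 31 cytosines at 39489364 to 39489486, read 13.4%, 14.0% and 12.5% in Control and 9.53%, 8.13% and 6.45% in CSDS. All 3 CSDS libraries were below all 3 Control libraries, CSDS replicate 1 by 3.77 points from the Control mean. The difference was −5.27 points (adjusted p = 0.205) as deposited and −2.10 after the correction, when the groups overlapped. The block with most cytosines (87) had means of 8.01% ± 1.16 and 6.10% ± 1.99 (SD, n = 3 each), with overlap. At the upper edge the stretch was bounded by 6 cytosines at 35.6% in Control and 34.7% in CSDS, and the nearest block below it by 10 cytosines at 94.5% in Control.

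**Figure D2:**
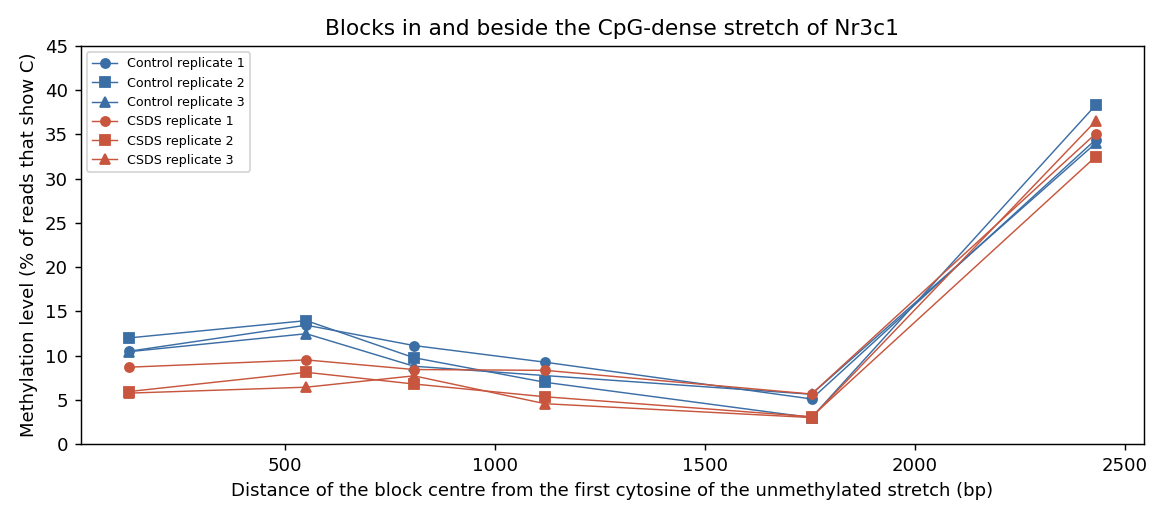
Methylation level (percent of reads that show C) of the 5 unmethylated blocks of Nr3c1 and of the next block above them, by distance in bp from the first cytosine of the stretch; each line joins the blocks of 1 library, Control in blue and CSDS in red. The CSDS lines lie lowest against Control in the second block and meet the Control lines in the fifth, before all 6 rise to between 32.5% and 38.3%.

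Nr3c2, the mineralocorticoid receptor (chromosome 8, 76898083 to 77245012, + strand), had 230 cytosines, 101 of them CpG-dense. Its CpG-dense part read 10.9%, 13.1% and 13.04% in Control and 14.6%, 6.98% and 8.43% in CSDS. CSDS replicate 1 was the highest of the 6 libraries and CSDS replicates 2 and 3 the lowest. The start window (29 cytosines around 76902330) had means of 19.2% ± 1.13 and 15.7% ± 2.84, and the interior (201 cytosines) 31.4% ± 0.354 and 29.4% ± 2.81 (SD, n = 3 each). The gene held 16 blocks, 5 of them under 20%, 7 over 80% and 4 between. In a pair of blocks the groups did not overlap, and the second of these is described because of its values. At 77133042 to 77133101, deep in the gene, 8 cytosines read 95.3%, 96.2% and 91.0% in Control and 83.4%, 89.7% and 86.3% in CSDS. All CSDS libraries were lower there, and the difference of −7.69 points was −7.97 after the correction, with no overlap in either scale (adjusted p = 0.208). At 76909245 to 76909328, 6915 bp past the listed start, 6 cytosines read 12.4%, 8.78% and 11.1% in Control and 14.1%, 17.0% and 15.9% in CSDS. All CSDS libraries were higher, by 4.88 points as deposited and 8.73 after the correction (adjusted p = 0.441). The corrected levels were 3.87%, −0.0684% and 1.17% in Control, near 0, and 6.08%, 13.2% and 11.9% in CSDS.

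Fkbp5 (chromosome 17, 28398753 to 28486149, − strand) had nearly all its data at the listed start. The start window held 209 cytosines and read 9.72%, 9.09% and 9.85% in Control and 9.47%, 5.32% and 5.41% in CSDS. CSDS replicate 1 lay inside the Control range and the other 2 were lower by a margin wider than the whole Control range. After the correction the same libraries read 0.902%, 0.278% and −0.206% in Control and 1.06%, 0.955% and 0.926% in CSDS, all near 0 and the CSDS libraries slightly higher. The block at the start, 195 cytosines over 953 bp, was the block with most cytosines in all 10 genes. The interior was methylated, with 12 cytosines at a Control mean of 89.9% ± 2.76 and a CSDS mean of 88.9% ± 2.16 (SD, n = 3 each). The intronic glucocorticoid-responsive enhancers for which Fkbp5 is best known were not placed against these blocks.

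The receptors for corticotropin-releasing hormone differed in where the unmethylated cytosines that were read lay. The level at the Crhr2 start is unknown. Crhr1 (chromosome 11, 104130463 to 104175523, + strand), the receptor through which that hormone drives the pituitary, had 182 cytosines in its start window. They read 15.4%, 15.2% and 14.5% in Control and 15.4%, 9.80% and 10.6% in CSDS, so that CSDS replicate 1 was the highest library and the other 2 the lowest. Crhr2 (chromosome 6, 55090048 to 55133016, − strand), which binds urocortins more strongly, had no cytosine in the window of its CpG-poor start. Its CpG-dense cytosines lay in a block of 73 cytosines inside the gene, at 55117474 to 55117891, 15125 bp from that start. The CpG-dense part (66 cytosines) read 11.05%, 12.4% and 11.04% in Control and 10.5%, 6.26% and 8.49% in CSDS. All CSDS libraries were lower, replicate 1 by a small margin, and after the correction the difference was 0.294 points with overlap. The adjusted p was 0.0862 for the CpG-dense part of Crhr1 and 0.108 for that of Crhr2.

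Crhr1 also held an unmethylated block of 12 cytosines away from its start, at 104157613 to 104157772, within 1 kb of the gene Gm35469, which read 13.8%, 7.70% and 14.3% in Control and 16.3%, 3.80% and 7.76% in CSDS. The libraries spread widely there in both groups. Of the 9 Crhr1 blocks, that of largest difference lay at 104171340 to 104171464 and was partly methylated. Its 9 cytosines read 51.9%, 48.5% and 42.9% in Control and 41.9%, 41.8% and 42.4% in CSDS, a difference of −5.75 points (adjusted p = 0.268) that came with a Control spread of 4.51 (SD, n = 3). Without Control replicate 1 the difference was −3.70. After the correction it was −4.00 and the groups overlapped.

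Among the peptide genes the unmethylated CpGs that were read were fewer, and in Avp and Pomc those read lay away from the listed start. The window from 250 bases before to 50 after the listed start held 8 CG pairs in Avp and 18 in Pomc. No cytosine in either window was read in every library, so the level there is unknown. Crh (chromosome 3, 19693401 to 19695396) had 24 cytosines within 1 kb of its lower end, used as a stand-in because no start is listed. They lay inside the gene and read 12.8%, 9.20% and 17.6% in Control and 11.6%, 7.44% and 8.07% in CSDS. The Control libraries spread widely, with only 450 to 1050 reads in all behind a library's value, and the groups overlapped. The 12 CpG-dense cytosines among them had means of 9.82% ± 4.29 and 3.94% ± 2.06 (SD, n = 3 each). These cytosines read as C less often than the mitochondrial ones of the same library in the 3 CSDS libraries and in Control replicate 2. The difference of −5.87 points was −3.55 without Control replicate 3.

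Ucn (chromosome 5, 31137989 to 31138895, − strand) had 44 cytosines in its start window, which read 15.7%, 16.2% and 15.6% in Control and 15.6%, 11.6% and 11.7% in CSDS. Its far side, 19 cytosines that also lie within 1 kb of Trim54 and Gm15469, read 15.7%, 20.01% and 17.8% in Control and 15.3%, 13.5% and 11.4% in CSDS. No CSDS library reached the Control range there, although replicate 1 came close to it, and the difference of −4.44 points (adjusted p = 0.147) was −1.40 after the correction.

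Pomc (chromosome 12, 3954945 to 3960643, + strand) read 29.4%, 33.04% and 30.6% in Control and 29.5%, 27.9% and 29.9% in CSDS at 8 cytosines by its start. This was the most methylated start of the 7, at the 88.8th percentile of all start windows, and the groups overlapped. An unmethylated block of 38 cytosines lay at 3959902 to 3960328, towards the other end of the gene, 4957 bp past the start. It read 15.8%, 12.9% and 13.1% in Control and 13.8%, 7.97% and 8.02% in CSDS. CSDS replicate 1 was inside the Control range. The 10.7-point difference in the CpG-dense part of Pomc rests on 3 cytosines of this block and on CSDS replicates 2 and 3, which read 17.9% and 16.5%, against 31.5% in replicate 1 and 30.4% to 36.0% in Control. With replicate 1 alone against Control it was −1.09 points.

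Avp (chromosome 2, 130580620 to 130582588, − strand) had no cytosine read within 1 kb of its listed start. It had 42 cytosines in 1 block inside the gene, at 130581041 to 130581376. They read 10.8%, 11.5% and 9.36% in Control and 12.01%, 6.01% and 8.79% in CSDS. CSDS replicate 1 was the highest library. Avp had the smallest difference of the CpG-dense parts, −1.53 points as deposited, and the largest positive one after the correction, 1.98 points, with overlap in both scales. The value as deposited was −0.0874 without CSDS replicate 2, −0.823 without Control replicate 2 and −3.14 without CSDS replicate 1.

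**Figure D3:**
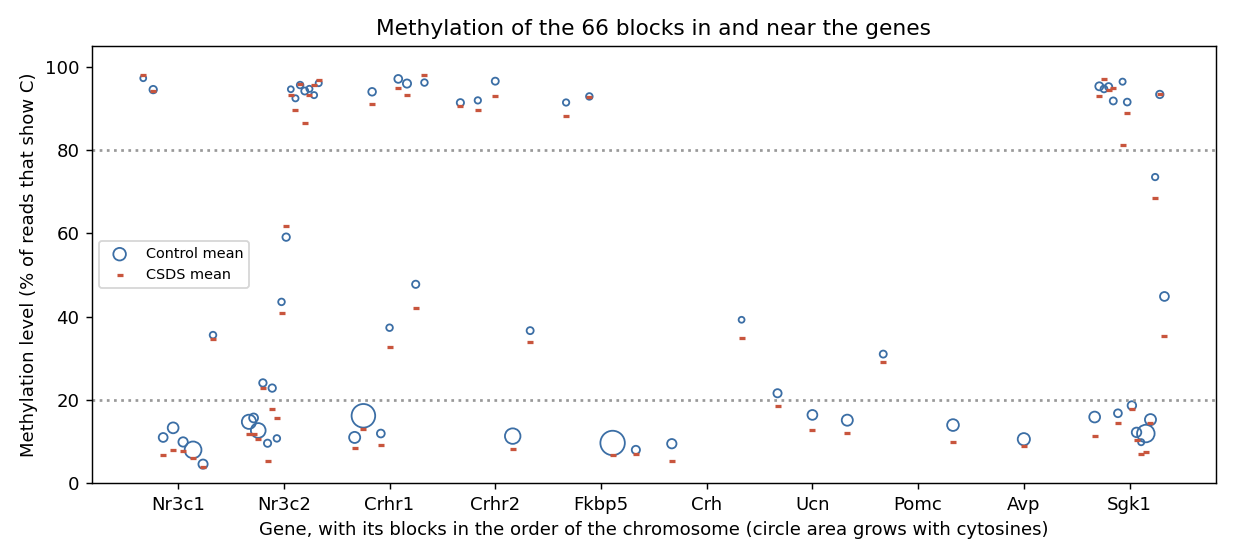
Methylation level (percent of reads that show C) of all 66 blocks of the 10 genes, in chromosome order within each gene; circles are Control means, with area growing with the number of cytosines, and dashes are CSDS means. Large blocks lie under the lower dotted line at 20%, and the small blocks over the upper line at 80% are in Nr3c1, Nr3c2, Crhr1, Crhr2, Fkbp5 and Sgk1.

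Sgk1 (chromosome 10, 21882184 to 21999903, + strand) has 6 listed starts, and they differed more among themselves than between the groups. The first, at 21882184, lies within 1 kb of Gm46215 and had 33 cytosines at 21.6%, 18.9% and 13.4% in Control and 13.2%, 11.001% and 13.9% in CSDS. Control replicate 3 and CSDS replicate 3 overlapped there. The second, at 21978672, whose sequence is printed above, was methylated, with 7 cytosines at 92.1%, 89.4% and 93.1% in Control and 91.6%, 88.9% and 86.4% in CSDS. The third, at 21986104, had no cytosine. The fourth, at 21992223, had 30 cytosines at 16.7%, 16.2% and 16.004% in Control and 16.5%, 12.9% and 14.9% in CSDS. The fifth and the sixth, at 21993890 and 21994666, share most of their cytosines (155 and 134). Around the fifth, which had most cytosines and stands for the gene, levels were 11.8%, 12.99% and 13.1% in Control and 11.7%, 7.03% and 9.28% in CSDS. All CSDS libraries were lower, replicate 1 by a small margin, and the difference of −3.30 points (adjusted p = 0.118) was 0.0242 after the correction.

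The CpG-dense part of Sgk1 (146 cytosines) had the lowest adjusted p of the 10, 0.0841, with 10.8%, 11.7% and 11.3% in Control and 9.41%, 5.62% and 7.66% in CSDS. All CSDS libraries were below all Control libraries, and the corrected difference was −0.374 points with overlap. Sgk1 held 16 blocks. The block of largest difference, 4 cytosines at 21973895 to 21974042, read 98.6%, 92.3% and 98.3% in Control and 88.0%, 90.1% and 65.5% in CSDS, with 51 to 193 reads per library. The difference of −15.2 points (adjusted p = 0.382) was −7.39 without CSDS replicate 3 and −15.96 after the correction. At the far end of the gene, 18 partly methylated cytosines at 21998709 to 21998963, chosen after their values were seen, read 42.6%, 53.2% and 38.7% in Control and 35.0%, 35.6% and 35.3% in CSDS. All CSDS libraries lay below Control, replicate 1 by as much as the others, and the difference was −9.55 points (adjusted p = 0.234) and −7.91 after the correction, when the groups overlapped. Without Control replicate 2 it was −5.38 points. Also chosen after its values were seen, a block of 12 cytosines at 21923484 to 21923583 read 21.2%, 11.5% and 17.8% in Control and 27.0%, 7.77% and 8.96% in CSDS, with CSDS libraries both highest and lowest.

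**Figure D4:**
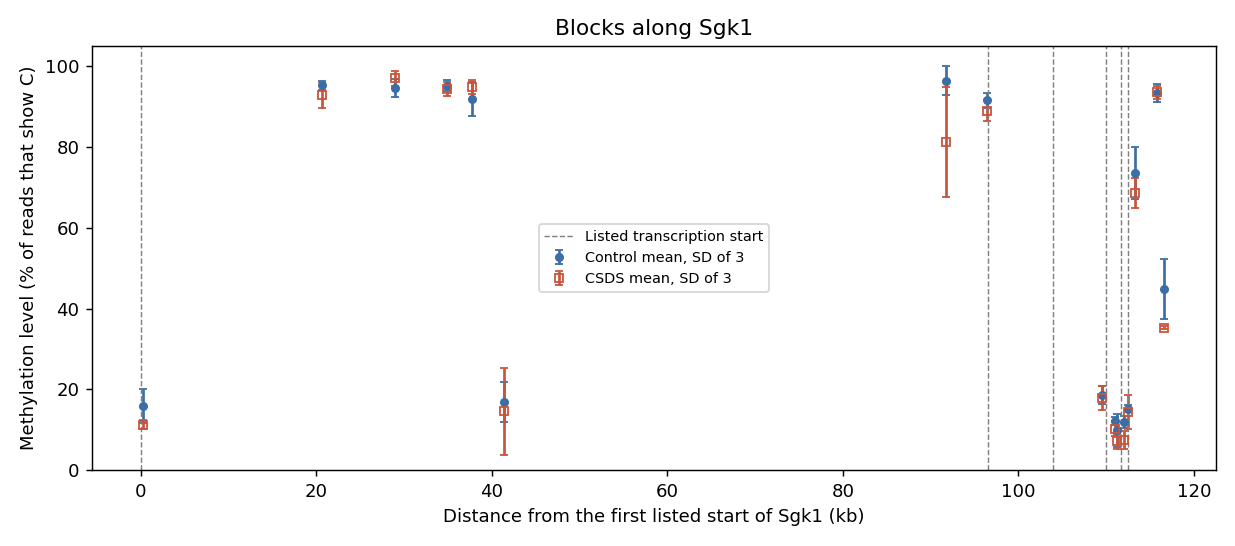
Methylation level (percent of reads that show C) of the 16 blocks of Sgk1 by distance in kb from its first listed start, as Control means (filled circles) and CSDS means (open squares) with the SD of 3 libraries; dashed lines are the 6 listed starts. The blocks at the first and at the last 3 starts are low, the block at the second start is at 91.5% in Control, and the last block, at 44.8% in Control and 35.3% in CSDS, stands between.

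Counted over the list, none of these genes had a called start or interior, as none did in the whole set (0.0% of start windows and 0.0% of interiors). All 7 start windows, including the gene-end stand-in of Crh, had a lower mean in CSDS, against 96.4% of 14571. An unadjusted p under 0.05 was found in 2 of 7 (41.1% of all), and 1 of 7, Sgk1, was without overlap (37.1% of all). The median was −3.10 points in the members and −3.41 in all start windows. After the correction 2 of 7 were lower (58.4% of all), with medians of 0.161 and −0.271. On that scale 1 of 7, Fkbp5, had CSDS above Control without overlap (4.07% of all), at levels near 0. In 0 of 7 was CSDS below without overlap (7.77% of all). As deposited all 9 interiors were lower, against 81.1% of 14244. Of the 9, 5 had an unadjusted p under 0.05 (21.6% of all) and 5 were without overlap (22.1% of all). Their median was −2.70 points against −1.43 in all, and −4.45 against −1.59 with reads summed over cytosines, where deep cytosines weigh more. The interior of Sgk1 was −2.70 points by the mean over cytosines and −8.38 by summed reads, and that of Crhr2 −2.78 and −5.78. The interiors of these genes are less methylated than most, with a Control median of 31.4% against 88.7%, and they include the CpG-dense blocks of Nr3c1, Nr3c2, Crhr2, Pomc and Avp. After the correction 6 of 9 were lower (66.0% of all), with medians of −0.623 and −0.523, and CSDS stayed below Control without overlap in 2 of 9 (10.4% of all), Crhr1 (−1.35 points) and Sgk1 (−1.78 points).

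The 66 blocks gave 28 low ones with 1215 cytosines, 13 between and 25 high ones with 180 cytosines. Low is under 20% and high over 80% in the mean of the Control and CSDS means. All blocks of the series were classed in this way, so the CSDS values enter the class. None of the 66 was called, as none of 144731 blocks tested was (0.0%). An unadjusted p under 0.05 was found in 16 of 66, against 14.7% of all. Low blocks were 28 of these 66 but 25392 of all 144732. By class these were 12 of 28 low blocks (53.6% of all low), 2 of 13 between (12.9%) and 2 of 25 high (4.32%). The groups did not overlap in 16 blocks, with CSDS below in 14 (15.3% of all) and above in 2 (1.9% of all). CSDS was below in 7 of 28 low blocks (32.8% of all low), 4 of 13 between (19.0%) and 3 of 25 high (9.24%). After the correction the counts over the 66 were 3 below (7.84% of all) and 4 above (3.59% of all). The 3 lower ones were the deep block of Nr3c2, the 4-cytosine block of Sgk1 and 14 cytosines of Crhr1 at 104168616 to 104168795, with means of 96.0% ± 0.101 and 93.3% ± 0.761 (SD, n = 3 each). The 4 higher ones were the 6-cytosine block of Nr3c2, 6 cytosines of Crhr1 at 104174356 to 104174404 (96.2% and 98.0%), the uppermost low block of Nr3c1 and the upper flank of the Fkbp5 start. In that Nr3c1 block the corrected levels of all 6 libraries were below 0, from −6.39% to −1.35%. In the Fkbp5 flank those of the 3 Control libraries were below 0. Such libraries read as C less often there than at the mitochondrial cytosines, so these 2 separations are between levels that cannot occur or lie near 0. In low blocks the median was −2.80 points against −3.46 in all low blocks, and after the correction 0.638 against −0.199. In high blocks it was −1.39 against −0.665, and after the correction −1.25 against −0.481.

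Other blocks were taken as the largest difference or the most cytosines of a gene. In Sgk1 96 cytosines just past the fifth start read 10.4%, 12.4% and 13.04% in Control and 9.96%, 5.78% and 6.64% in CSDS, apart as deposited and overlapping after the correction (−1.20 points). In Ucn 24 cytosines at 31137634 to 31138089 had means of 16.4% ± 1.77 and 12.7% ± 1.41, apart as deposited and −0.529 after the correction. The 181-cytosine block at the Crhr1 start had means of 16.2% ± 0.469 and 12.9% ± 3.04, and the 65-cytosine block of Nr3c2 12.7% ± 1.23 and 10.7% ± 3.98, both with overlap. Small blocks of largest difference were 8 methylated cytosines of Crhr2 (96.5% and 93.0%), 5 of Fkbp5 (91.4% and 88.2%) and 3 partly methylated ones of Crh (39.2% and 34.9%).

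The count of parts with an adjusted p under 0.05 depended most on CSDS replicate 1. Without it, 20 of the 26 starts, interiors and CpG-dense parts of the 10 genes had an adjusted p under 0.05, with differences of −7.06 to −3.14 points, none of them reaching 10 points. By kind these were 6 of 7 starts (82.8% of all start windows), 5 of 9 interiors (18.9% of all) and 9 of 10 CpG-dense parts (92.4% of all). The 2 CSDS libraries left are those with the lower mitochondrial share, and its part in these differences was not tested beyond the correction given above.

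**Figure D5:**
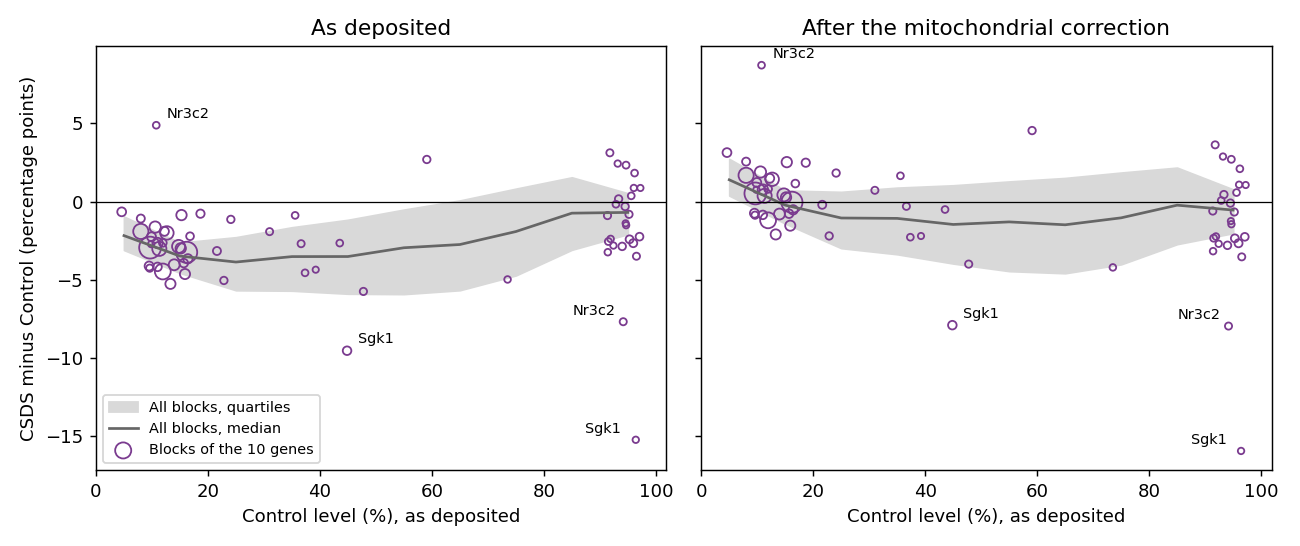
Difference of group means (CSDS minus Control, percentage points) of each block of the 10 genes against its Control level, as deposited (left) and after the mitochondrial correction (right); circle area grows with the number of cytosines, and the line and band are the median and quartiles of all blocks in steps of 10 percentage points of Control level. Of the 66 blocks, 32 lie inside the band as deposited, with 17 below and 17 above it, and 29 inside after the correction, with 18 below and 19 above; the 4 blocks of Sgk1 and Nr3c2 named in the plot are among those outside on both scales.

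Around these genes, 35 further genes of the pathway were listed by role (other peptides and receptors, chaperones of the receptor, cofactors, steroid enzymes and carriers, glucocorticoid targets), and 29 had a measured start. None was called, 28 were lower and 1, Cyp21a1, a steroid hydroxylase, was higher (90.1% and 92.2%). An unadjusted p under 0.05 was found in 10 of 29 (41.1% of all start windows) and non-overlap in 6 of 29 (37.1% of all). Their median was −3.46 points as deposited and −0.277 after the correction. The largest differences were those of the vasopressin receptor Avpr1a (17.2% ± 4.38 and 10.8% ± 3.81), the orphan receptor Nr4a1 (22.2% ± 1.94 and 15.98% ± 3.21), the convertase Pcsk1 that cleaves the Pomc precursor (19.5% ± 6.54 and 14.6% ± 3.59), the chaperone Hspa8 (14.3% ± 1.42 and 9.67% ± 2.41), the steroid enzyme Cyp11a1 (46.0% ± 1.82 and 41.4% ± 2.55) and the chaperone Hsp90aa1 (12.5% ± 0.828 and 8.03% ± 1.40), each as Control and CSDS means with SD of 3 libraries. Of these, Nr4a1, Hspa8 and Hsp90aa1 had no overlap. After the correction 3 of the 29 had none, Nr4a1 with CSDS lower (−3.46 points; 7.77% of all start windows lay that way) and, with CSDS higher, the chaperones Hsp90ab1 (1.37 points) and Stip1 (1.92 points; 4.07% of all). Of the genes named here, Cyp21a1, Hsp90aa1, Hsp90ab1 and Hspa8 have no listed start, so a gene end stood in. All 6 chaperones of the hormone-free receptor had start windows under 20% in Control. As deposited all 6 were lower (96.4% of all), 3 of them without overlap (37.1% of all), and after the correction 4 were lower (58.4% of all).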

How the data were processed

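Genomic DNA of male germ cells was made into RRBS libraries with the Zymo-Seq kit, per the labels' protocols, trimmed with Trim Galore 0.5.0 and aligned with Bismark 0.20.0 to GRCm38, per the submitters' processing notes. The deposited tables give, per the file headers, coverage as a count of reads (at least 10) and the percent of reads showing C or T. Duplicates carry no identifiers, so a count of reads need not be a count of separate molecules. SDs and p-values rest on the spread between libraries. Of 2210988 cytosines listed in all 6 libraries, 4668 in the top 0.1% of coverage were left out. Levels are means over cytosines. Summed counts were fitted with a quasi-binomial model in R 4.3.3, dispersion moderated by limma 3.58.1 and held at 1 or above. The model was also run on simulated start windows with known increases. That simulation held no shift of whole libraries, so it cannot show how the model behaves under one. A member is reported with its start, interior, block of largest difference and block of most cytosines. Where a gene has several starts, that with most cytosines was used, and without a listed start the end with more. The members and lists were chosen with earlier results of these data known, and CpG-dense parts were added after the data were seen.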

Additional observations from a re-analysis of the deposited data

How the results depend on the processing

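The mitochondrial correction changed direction most often. In the CpG-dense part and the block of most cytosines of Nr3c1, Control replicates 2 and 3 and CSDS replicate 1 fell below 0 on the corrected scale. Those turns are between levels near 0 or below it. On that scale (with "largest block" for the block of most cytosines) differences that had been negative were, in points, Nr3c1 0.799 (interior), 1.04 (CpG-dense part), 1.68 (largest block), Nr3c2 0.657 (interior), 1.08 (CpG-dense part), 1.43 (largest block), Crhr1 0.161 (start), 0.0917 (CpG-dense part), Crhr2 0.294 (CpG-dense part), 0.367 (largest block), Fkbp5 0.656 (start), 0.547 (CpG-dense part), 0.52 (largest block), Ucn 0.357 (start), 0.265 (largest block), Pomc 0.72 (start), Avp 1.89 (interior), 1.98 (CpG-dense part) and Sgk1 0.0242 (start), 1.15 (12-cytosine block), with medians over the members of 0.161 at starts and 0.193 in CpG-dense parts, and 4 of all blocks were called. With CSDS replicate 1 alone against Control, chosen after seeing the data, they were Nr3c2 1.11 (interior), 2.27 (CpG-dense part), 2.53 (largest block), Crhr1 0.402 (start), 0.144 (CpG-dense part), 0.258 (largest block), Avp 1.44 (interior), 1.69 (CpG-dense part), Nr3c1 0.34 (largest block), Ucn 0.495 (largest block) and Sgk1 10.2 (12-cytosine block), and the median over CpG-dense parts was −0.429. Leaving out 1 library at a time, called starts ranged from 0 to 195, interiors from 0 to 32, blocks from 0 to 1778 and CpG-dense parts from 0 to 132, and every count above 0 came without CSDS replicate 1. The Fkbp5 interior ranged from −1.85 to 0.667, and was 0.310 without CSDS replicate 1, and the 12-cytosine block of Sgk1 from −8.44 to 1.19, at 0.590 without CSDS replicate 3. limma on logit values called 43 starts and 50 CpG-dense parts, none of the 10 genes among them. In it the CpG-dense part of Crh had an adjusted p of 0.00282, against 0.240 in the quasi-binomial test, at −5.87 points. The labels number the replicates but do not pair them, and deviations of same-numbered libraries from their group means correlated over start windows at −0.0934, −0.0584 and 0.000796 for numbers 1, 2 and 3. With the replicate block 14 CpG-dense parts were called, and that of Crhr1 had an adjusted p of 0.0336 at −3.16 points. In no other setting did a start, interior or CpG-dense part of these genes have an adjusted p under 0.05, except without CSDS replicate 1. A coverage minimum of 20, no coverage cap, summed reads and a window of 500 bp turned no direction in the members they were run on. A minimum of 10 cytosines and gaps of at most 50 bp were run for the counts of called features only, which stayed at 0. Depth was lowest in the small blocks, down to 51 reads per library.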
